A study of Mus musculus with 18 samples.

Results

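The busulfan effect in mouse testes cultured with alginate oligosaccharides (AOS) at 50 µg/mL was taken from 6 of the 18 RNA-seq samples of the series, the 3 BA50 samples (busulfan) and the 3 A50 samples (no busulfan). BA50 samples were testes of ICR mice, an outbred stock, that had been injected once with busulfan at 40 µg per g body weight when 3 weeks old. A50 samples were testes of ICR mice of the same age without busulfan. All testes were removed 2 weeks after the time of injection and kept for 48 h in DMEM/F12 medium with serum, and the medium of both groups held AOS at 50 µg/mL, so AOS was not a difference between them. AOS are short sugar chains cut from the alginate of brown algae. The sample labels give the AOS amount per volume of medium, whereas the series design text gives it per body weight, and the unit of the labels is used here. The methods give 6 testes per treatment and 3 repeats without saying how the testes fill the 3 samples of a group. The p values come from 1 fit of all 18 samples. They therefore measure a spread within groups that is pooled over the series and may be partly technical. The other groups were A0 and B0 (without and with busulfan, no AOS) and A10 and BA10 (without and with busulfan, AOS at 10 µg/mL). Of 22657 genes in the deposited table, 14929 had at least 1 FPKM (fragments per kilobase of transcript, scaled to the fragments of the sample) in at least 3 of the 6 samples and were tested.

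Busulfan is an alkylating drug that crosslinks DNA and kills dividing spermatogonia, the cells at the base of the seminiferous tubule from which sperm arise. Spermatogonia either renew themselves or differentiate under retinoic acid, enter meiosis as spermatocytes, pair and recombine their chromosomes, and divide into round spermatids, which then elongate and pack their DNA with protamines. Sertoli cells nurse all these stages within the tubule, and Leydig cells between the tubules make testosterone. The comparison of BA50 with A50 asks which genes differ between busulfan-treated and untreated testes when both are cultured in the higher AOS concentration.

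FPKM sums were 465989 to 474828 in A50 samples and 496042 to 499871 in BA50 samples, without overlap. Genes that reached 1 FPKM numbered 14792 to 14887 in A50 samples and 14291 to 14637 in BA50 samples, also without overlap. Read counts were not given, so the depth of each sample is unknown. Pearson's r across the tested genes, on the log2(FPKM + 1) scale, was 0.984 to 0.987 between A50 samples and lower between BA50 samples, at 0.945 for replicates 1 and 2, 0.965 for replicates 1 and 3 and 0.969 for replicates 2 and 3. The first principal component of the 6 samples held 55.1% of the variance and separated the groups. The second held 23.8% and had BA50 replicates 1 and 2 at opposite ends. Markers of testis were high in all 6 samples, among them Clu of Sertoli cells (2043 to 4425 FPKM) and Prm1 of spermatids (936 to 3057 FPKM). Some other testis markers were low in both groups. The Sertoli hormone gene Amh had means of 0.46 FPKM in A50 and 0.443 in BA50, the Leydig receptor gene Lhcgr 0.363 and 0.443, and the stem cell gene Nanos2 0.00667 and 0.0333.

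Busulfan-treated testes cultured with 50 µg/mL AOS had far more genes lower than higher. By limma on log2(FPKM + 1), with a Benjamini-Hochberg adjusted p under 0.05 as the limit, 2546 genes were lower in BA50 (17.1% of those tested) and 606 were higher (4.06%). Quantile normalization moved this split, with 2259 lower and 1011 higher, so that 30.9% of the called genes were higher in place of 19.2%. Scaling to equal sums moved it the other way, with 2923 lower and 321 higher, or 9.90% of the called genes higher. Before scaling, the FPKM sum of every BA50 sample was above that of every A50 sample. At the stricter limits of the study's methods, an adjusted p of at most 0.001 and a log2 difference of at least 1 in size, 527 genes were lower (3.53%) and 6 were higher (0.0402%), and 88 of the 527 had fallen by at least 2 on the log2 scale. The 527 became 201 when only the 6 samples were fitted and 1 with the replicate number as a block in the 6 samples. Both fits had fewer residual degrees of freedom than the fit of 18 samples, with the same median difference over all tested genes. With a mean of at least 5 FPKM as the filter, 10585 genes were tested and 297 were lower at these limits. All 3 BA50 values lay below all 3 A50 values for 3943 genes (26.4%) and above them for 2449 (16.4%). The median difference over all tested genes was -0.01. The number of genes called higher depended on single samples, at 268, 296 and 374 without A50 replicate 1, 2 or 3 and 378 without BA50 replicate 1. Differences on this scale understate the change of genes with low values, and exact two-sided permutation p values cannot go below 0.1 with 3 samples against 3. In whole testis, fewer cells of a type and less RNA per cell cannot be told apart.

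**Figure D1:**
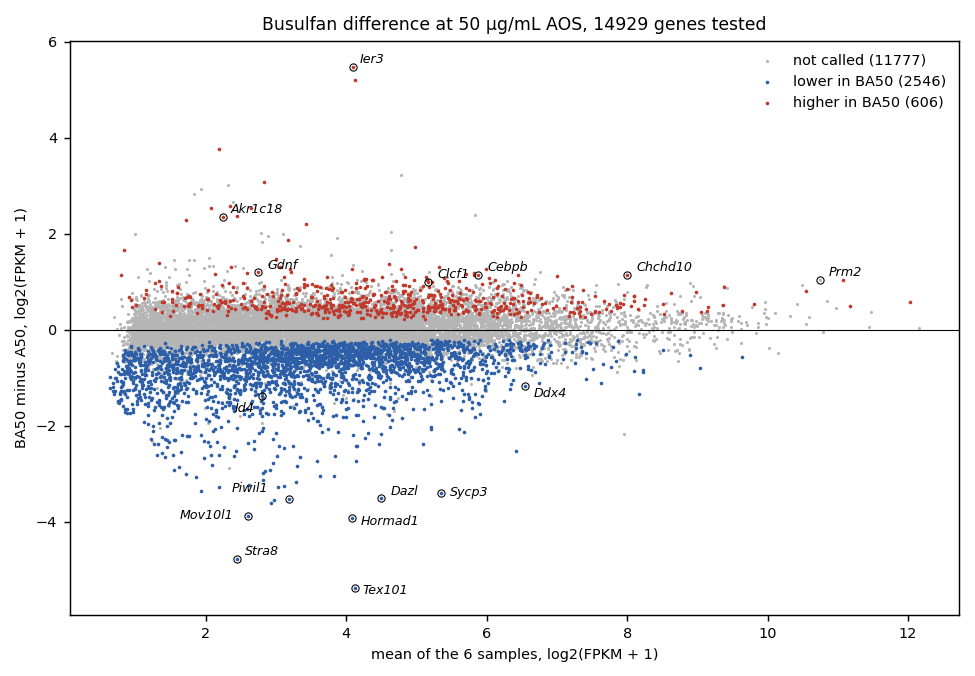
Each point is 1 of the 14929 tested genes, with its mean over the 6 samples on the x axis and the BA50 minus A50 difference on the y axis, both on the log2(FPKM + 1) scale. Called genes (adjusted p under 0.05, limma) are blue where lower (2546) and red where higher (606), circled genes are named in the text, and the points reach further below 0 than above it except for a few red points led by Ier3.

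The 10 largest falls, among called genes with a symbol, no overlap and at least 5 FPKM in A50, were Tex101, Stra8, Hormad1, Mov10l1, Gm3376, Slc25a31, Piwil1, Dazl, Sycp3 and Prss50. Apart from Gm3376, a Y-linked gene model whose value is uncertain because the mouse Y holds many near-copies of genes, these are genes of male germ cells. Their promoters are shown because the 5 genes printed here carry the results that follow, and because genes that fall together may share letters in them. The windows are the 250 bases before the RefSeq start site in GRCm38.p6, read 5′ to 3′ on the strand of the gene, with CACGTG and AACNGNC, on either strand, in capitals. The GENCODE starts given below can differ from these start sites. CACGTG is the core of an E-box, a site of helix-loop-helix factors, and AACNGNC is a form of the site of MYB factors.
Tex101 (chr7:24672051-24672300, minus strand): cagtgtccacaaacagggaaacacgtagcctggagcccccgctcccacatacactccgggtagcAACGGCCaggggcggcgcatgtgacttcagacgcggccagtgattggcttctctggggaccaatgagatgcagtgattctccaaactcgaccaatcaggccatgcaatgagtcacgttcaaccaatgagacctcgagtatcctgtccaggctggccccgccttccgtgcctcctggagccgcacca
Stra8 (chr6:34920698-34920947, plus strand): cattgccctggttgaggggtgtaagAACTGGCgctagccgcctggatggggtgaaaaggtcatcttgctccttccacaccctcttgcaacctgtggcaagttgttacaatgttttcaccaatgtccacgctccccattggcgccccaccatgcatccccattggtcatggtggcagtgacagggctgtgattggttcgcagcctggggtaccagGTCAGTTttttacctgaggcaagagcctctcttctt
Hormad1 (chr3:95559427-95559676, plus strand): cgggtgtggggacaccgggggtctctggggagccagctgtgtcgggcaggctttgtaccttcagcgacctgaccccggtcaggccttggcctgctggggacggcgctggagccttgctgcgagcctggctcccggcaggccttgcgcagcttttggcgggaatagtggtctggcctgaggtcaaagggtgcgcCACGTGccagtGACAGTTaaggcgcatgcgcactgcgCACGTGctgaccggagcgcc
Piwil1 (chr5:128735996-128736245, plus strand): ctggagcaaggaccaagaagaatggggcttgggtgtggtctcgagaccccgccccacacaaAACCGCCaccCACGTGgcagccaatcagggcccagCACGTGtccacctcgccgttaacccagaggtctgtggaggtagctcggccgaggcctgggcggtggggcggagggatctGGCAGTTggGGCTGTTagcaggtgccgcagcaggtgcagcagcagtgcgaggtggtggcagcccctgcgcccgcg
Sycp3 (chr10:88459337-88459586, plus strand): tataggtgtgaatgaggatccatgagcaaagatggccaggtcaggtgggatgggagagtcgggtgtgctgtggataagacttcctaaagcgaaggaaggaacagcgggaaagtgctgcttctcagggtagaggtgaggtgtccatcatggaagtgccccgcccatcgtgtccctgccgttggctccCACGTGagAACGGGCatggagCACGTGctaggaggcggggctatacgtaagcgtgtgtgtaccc

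Tex101 (GRCm38 chr7:24668012-24672050, coordinates of genes from GENCODE), which encodes a surface glycoprotein of germ cells needed for fertile sperm, fell most on the log2(FPKM + 1) scale. With a pseudocount of 0.1, Stra8 fell further than Tex101 (-7.64 against -5.96). Tex101 had 97.4, 114 and 126 FPKM in A50 and 1.71, 1.67 and 1.73 FPKM in BA50. The 3 BA50 samples were almost alike and far below every A50 sample, a fall of 5.39 on the log2 scale (standard error 0.13, adjusted p = 1.92e-12, limma). Stra8 (chr6:34920163-34939344), the retinoic acid target required for entry into meiosis, had 22.9, 35.4 and 25.7 FPKM in A50 and 0.12, 0 and 0.02 in BA50. Its transcript was thus near or listed at 0 in all busulfan-treated samples (log2 difference -4.77, standard error 0.20, adjusted p = 1.36e-09, limma). Hormad1 (chr3:95559677-95587863), a protein of the unpaired chromosome axis, had 66.6, 68.1 and 59.2 FPKM in A50 against 2.22, 4.17 and 3.89 in BA50, 18.9 times less on average. Sycp3 (chr10:88459587-88473236), a component of the lateral element of the synaptonemal complex, had 133, 128 and 130.03 FPKM in A50 against 8.25, 14.4 and 12.9 in BA50, 11.0 times less. Piwil1 (chr5:128736071-128755474), the PIWI protein of pachytene spermatocytes, had 31.6, 32.2 and 25.9 FPKM in A50 against 1.41, 1.85 and 1.81 in BA50, 17.7 times less. The groups were apart for each of these 5 genes by far more than the spread within either group. For the other falls of this set the ratio of A50 to BA50 means was 11.6 for Dazl, a germ cell RNA-binding protein, 19.2 for Slc25a31, the ADP/ATP carrier of germ cell mitochondria, 38.0 for Mov10l1, a helicase of piRNA biogenesis, and 57.0 for Prss50, a testis serine protease.

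Of the windows of these 10 genes, 5 held CACGTG (those of Hormad1, Mov10l1, Slc25a31, Piwil1 and Sycp3) and 7 held AACNGNC, and no match of one overlapped a match of the other. These shares describe 10 genes and carry no test. CACGTG was looked for after the windows had been seen. Among the 11311 tested genes with a RefSeq window, 9.51% held CACGTG and 32.8% held AACNGNC. The shares were 10.8% and 36.5% among genes lower in BA50, 8.30% and 29.5% among genes higher, and 12.5% and 37.5% among those lower at the strict limits. Over all 32851 RefSeq windows they were 6.02% and 27.7%. These last are counted per window, whereas a gene above counted if any of its windows held the motif. Of the 26 early meiotic prophase genes with a window, 8 held CACGTG (30.8%) and 8 held AACNGNC. The 8 with CACGTG include Hormad1 and Sycp3 of the largest falls, whose windows had been seen first, so this share is not independent of them. Another 3 motifs were searched. TCCCGC, of E2F sites, was in 31.4% of tested genes, 35.4% of those lower and 38.6% of those higher. TGACGTCA, of cyclic AMP response elements, was in 2.84%, 3.10% and 4.15%, and CNCCTCAG, described for STRA8 with MEIOSIN, in 8.75%, 10.3% and 10.4%.

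Genes of undifferentiated spermatogonia, among them the stem cells, were low in both groups and mostly leaned lower in BA50. Of 18 listed genes 10 were expressed enough to be tested. Of these, 4 were lower in BA50 and 0 higher, 2 had a difference above 0, and the median was -0.32. Summed FPKM over the 18 genes was 44.68, 45.66 and 49.35 in A50 and 36.08, 29.14 and 32.03 in BA50. Over all tested genes 17.1% were lower and 4.06% higher, the shares to set beside the counts of this and the following lists. Id4, an inhibitor of DNA binding that marks stem spermatogonia, had 10.5, 9.3 and 10.9 FPKM in A50 and 3.27, 3.26 and 3.41 in BA50, 3.09 times less. Sall4, a transcription factor of spermatogonia, had 1.38, 1.74 and 1.56 FPKM in A50 and 0.02, 0.02 and 0.01 in BA50. Lin28a, an RNA-binding protein of undifferentiated cells, was also lower (log2 difference -1.91, standard error 0.12, adjusted p = 4.36e-08, limma), as was Taf4b, a germ cell subunit of the transcription factor TFIID (-0.76). All 4 had groups apart. Members outside the rule for named genes, here and in the groups below, were picked as examples after their values were seen. Gfra1, the receptor of GDNF on stem cells, had 2.21, 2.18 and 2.24 FPKM in A50 and 0.88, 3.23 and 1.85 in BA50, so the groups overlapped. Etv5 and Zbtb16 did not pass the test either (adjusted p = 0.23 and 0.17, limma).

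Differentiating spermatogonia and meiotic entry were represented by 13 genes, all tested, of which 10 were lower and 1 was higher, with a median difference of -1.43. Crabp1, a retinoic acid-binding protein, had 7.45, 9.7 and 7.99 FPKM in A50 and 0.16, 0.24 and 0.1 in BA50. Sohlh1 and Sohlh2, helix-loop-helix factors that drive spermatogonial differentiation, fell by 1.96 and 2.33 on the log2 scale. Bhmg1, the gene of MEIOSIN, which works with STRA8, had 3.77, 4.02 and 6.77 FPKM in A50 and 0.07, 0.08 and 0.13 in BA50. Crabp1 and Bhmg1 were therefore near 0 in every busulfan-treated sample. Kit, the receptor of differentiating spermatogonia, also made by Leydig cells, fell less, from 11.9, 12.04 and 10.5 FPKM to 7.88, 2.91 and 8.02 (adjusted p = 0.042, limma). The exception was Uchl1, a ubiquitin hydrolase that Sertoli cells can also make, which had 55.1, 49.9 and 53.9 FPKM in A50 and 93.6, 99.98 and 66.1 in BA50 (adjusted p = 0.035, limma). No gene of the list was called higher when any A50 replicate, or BA50 replicate 1 or 2, was left out.

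Early meiotic prophase was represented by the longest list. Of 32 listed genes 30 were tested, 24 were lower (16 of them at the strict limits), 0 were higher, and the median difference was -1.31, against -0.01 over all tested genes. Genes of the chromosome axis and synaptonemal complex differed widely among themselves. Sycp2 had 45.6, 47.1 and 39.8 FPKM in A50 and 4.3, 7.12 and 6.33 in BA50, and Tex12, a central element protein, had 10.8, 13.2 and 12.5 against 0.77, 1.3 and 1.32. Syce2 and Syce3, proteins of the same central element, did not pass the test. Syce2 had 57.6, 55.7 and 58.9 FPKM in A50 and 44.03, 79.6 and 56.3 in BA50 (log2 difference 0.02, adjusted p = 0.96, limma), and the groups overlapped. Rec8, the meiotic cohesin kleisin, had 11.3, 11.6 and 11.1 FPKM in A50 and 9.51, 18.1 and 14.7 in BA50, again overlapping. Several recombination genes were lower. Spo11, which makes the DNA breaks, fell by 2.10 on the log2 scale, Dmc1, the meiotic strand-exchange protein, by 2.55, and Meiob, a partner of single-stranded DNA, by 2.61 (adjusted p = 5.1e-06, 1.8e-07 and 6.16e-09, limma). Hormad2, an axis protein like Hormad1, had 5.36, 6.36 and 4.71 FPKM in A50 and 0.29, 0.29 and 0.36 in BA50. Later-acting Msh4 and Msh5, which stabilize crossover intermediates, fell by only 0.72 and 0.66.

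Genes of pachytene and later spermatocytes showed smaller falls, with 11 of 17 lower, 0 higher and a median of -1.04. Without BA50 replicate 1 only 7 of the 17 were called lower. Mybl1, the MYB factor of pachytene spermatocytes, had 13.1, 12.3 and 11.3 FPKM in A50 and 2.23, 3.93 and 2.93 in BA50, 4.04 times less. Psma8, the testis proteasome subunit, had 41.6, 46.1 and 32.7 FPKM in A50 and 5.03, 9.86 and 5.9 in BA50. Both were lower in all 3 BA50 samples. Ldhc, the germ cell lactate dehydrogenase, had 1402, 1281 and 1339 FPKM in A50 and 702, 1155 and 1068 in BA50. Its groups were apart but it did not pass the test (log2 difference -0.49, adjusted p = 0.23, limma), and neither did Ybx2, a germ cell Y-box protein (adjusted p = 0.35, limma).

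In the PIWI-interacting RNA (piRNA) pathway, which silences transposons in germ cells and shares Piwil1 and Tdrd9 with the preceding group, 13 of 17 genes were lower, 0 were higher and the median was -1.44. Mov10l1 had 20.5, 23.9 and 22.1 FPKM in A50 and 0.52, 0.65 and 0.58 in BA50 (log2 difference -3.87, standard error 0.14, adjusted p = 1.92e-10, limma). Fkbp6, a chaperone partner of the pathway, had 22.5, 28.1 and 26.8 against 1.39, 1.92 and 2.2, and Pld6, the mitochondrial nuclease, 8.68, 9.31 and 7.21 against 1.24, 1.36 and 1.32. All 3 genes were low in each BA50 sample. Ddx4, the germ cell helicase known as VASA, fell less, from 143, 146 and 128 FPKM to 43.5, 80.5 and 64.7, 2.21 times less (log2 difference -1.17, standard error 0.24, adjusted p = 0.00216, limma). Gtsf1, a cofactor of PIWI proteins, had 197, 172 and 178 FPKM in A50 and 129.9, 218 and 193 in BA50 and overlapped.

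**Figure D2:**
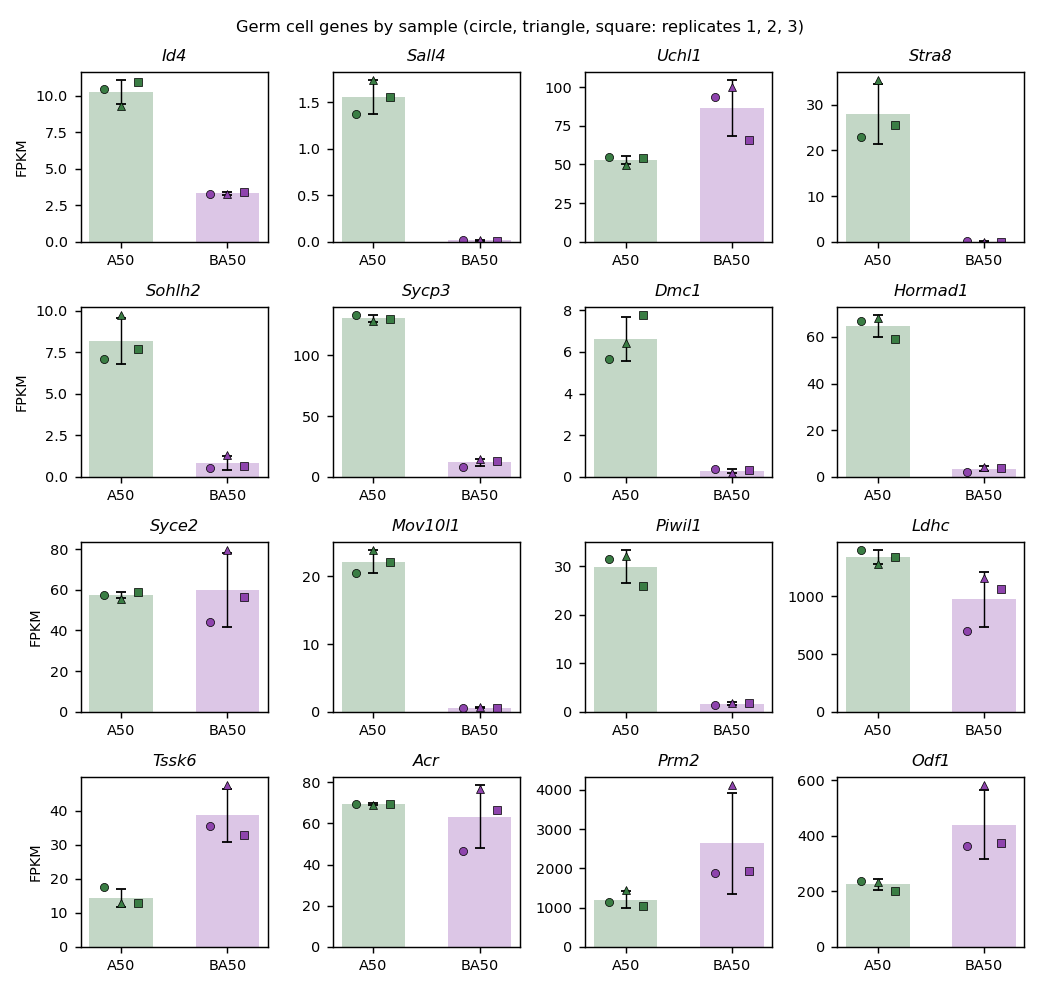
Each panel shows 1 germ cell gene in FPKM, with bars for the mean of the 3 A50 and the 3 BA50 samples, whiskers for the SD and points for the replicates. Id4, Sall4, Stra8, Sohlh2, Sycp3, Dmc1, Hormad1, Mov10l1, Piwil1 and Ldhc were lower in every BA50 sample, Syce2 and Acr overlapped, and Tssk6, Prm2, Odf1 and Uchl1 were higher in every BA50 sample, with replicate 2 the highest for Tssk6, Prm2 and Odf1.

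Few spermatid genes passed the test. In the round spermatid and acrosome list, 1 of 22 genes was higher and 0 lower, 16 had a difference above 0, and the median was 0.55. The share called higher was 4.55%, near the 4.06% of all tested genes. The median was 0.32 without BA50 replicate 2 and 0.76 without BA50 replicate 1. Summed FPKM over the 22 genes was 1127, 1029.9 and 1041 in A50 and 1019.6, 1785 and 1337 in BA50, so the groups overlapped and BA50 replicate 2 was highest. Tssk6, a kinase of spermatids, had 17.4, 12.7 and 12.9 FPKM in A50 and 35.6, 47.5 and 32.8 in BA50, 2.69 times more (log2 difference 1.37, standard error 0.34, adjusted p = 0.00907, limma). Acr, the acrosomal protease, had 69.4, 68.8 and 69.7 FPKM in A50 and 46.5, 76.7 and 66.8 in BA50 and overlapped. Pgk2, the germ cell phosphoglycerate kinase, had 210.2, 196 and 184 against 190.5, 298 and 215 (adjusted p = 0.633, limma).

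All 20 genes of elongating spermatids had a higher mean in BA50 and 18 of the 20 had groups apart, as 16.4% of all tested genes did in that direction, yet only 1 was called, Prm3 (median 0.91). That call was 5% of the list, near the 4.06% of all tested genes. Prm1 and Prm2, the protamines, had 1015, 1183 and 936 FPKM and 1139.9, 1436 and 1029 FPKM in A50. In BA50 they had 1382, 3057 and 1837 FPKM and 1869.8, 4128 and 1933 FPKM. The BA50 samples were all higher but spread widely, with replicate 2 more than 2 times replicate 1 for both genes. The differences were 0.93 for Prm1 and 1.05 for Prm2 (standard errors 0.33 and 0.38, adjusted p = 0.0573 and 0.0658, limma). Tnp1 and Tnp2, the transition proteins that precede protamines, and Odf1 of the sperm tail came as near, with differences of 0.88, 0.91 and 0.93 (adjusted p = 0.0738, 0.0521 and 0.0503, limma). Prm3 had 54.3, 61.7 and 59.5 FPKM in A50 and 74.2, 168 and 127 in BA50 (adjusted p = 0.0372, limma). Summed FPKM over the 20 genes was 5595, 6046 and 4858 in A50 and 7663, 15653 and 9082 in BA50. The number of genes called higher was 5 without BA50 replicate 1 and 0 without replicate 2 or 3 of BA50 or any replicate of A50, and it was 6 when only the 6 samples were fitted. The median stayed positive throughout, at 1.11 without BA50 replicate 1 and 0.61 without replicate 2. BA50 replicate 2 also had the lowest summed FPKM of the macrophage list (429, against 975 and 875, and 691 to 760 in A50) and of the endothelial list (71.5, against 162 and 122), whose part in the spermatid values was not tested.

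**Figure D3:**
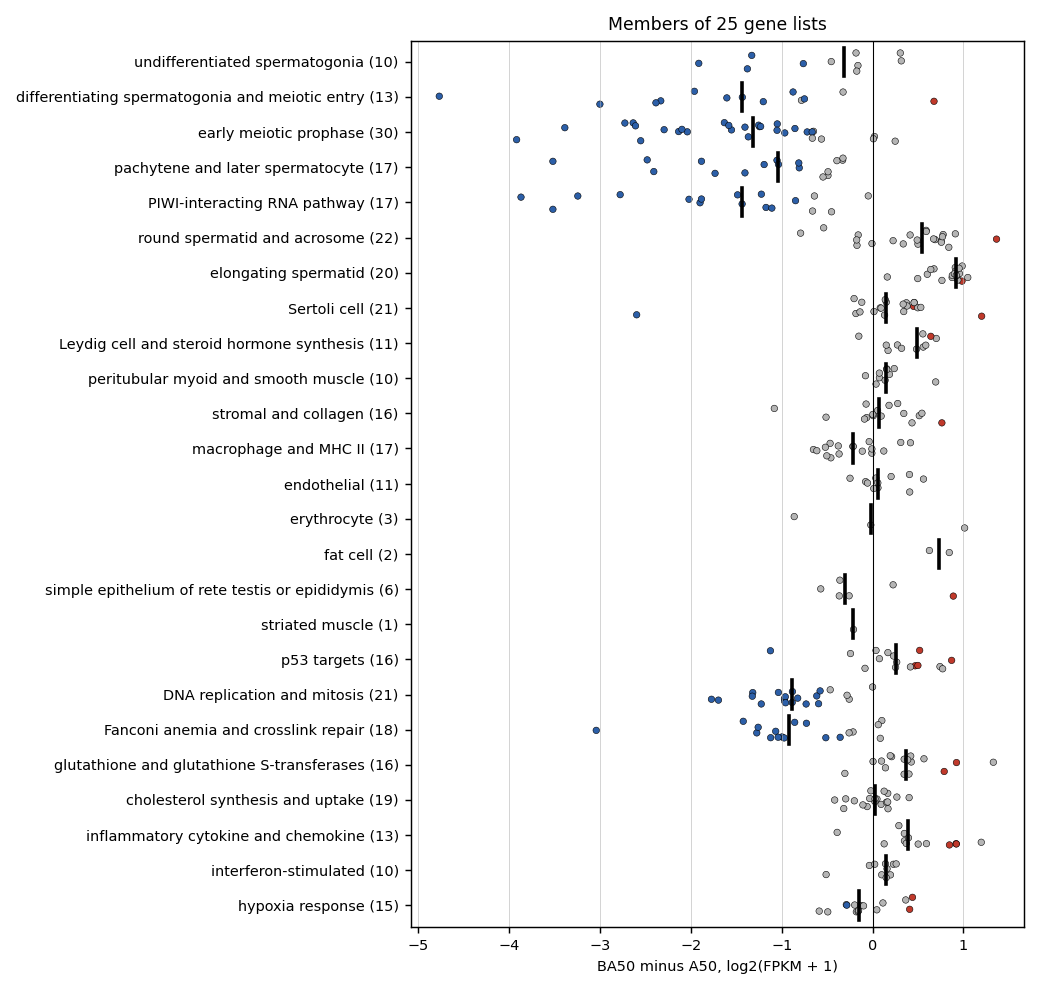
Each point is a tested gene of 1 of the 25 lists, with the number tested in brackets, placed at its BA50 minus A50 difference in log2(FPKM + 1). Blue and red points passed the test as lower and higher, grey points did not, and black bars are list medians, which lie between -1.44 and -0.32 for the lists of spermatogonia, spermatocytes and the piRNA pathway and at 0.55 and 0.91 for the spermatid lists.

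Sertoli cell genes were mostly close in both groups, with 2 of 21 higher, 1 lower and a median of 0.15. These were 9.52% and 4.76% of the list, against 4.06% and 17.1% of all tested genes. Gdnf (chr15:7810048-7837580), the growth factor by which Sertoli and myoid cells maintain stem spermatogonia, had 2.72, 4.17 and 3.46 FPKM in A50 and 10.7, 10.4 and 6.8 in BA50. Every BA50 sample was above every A50 sample, 2.70 times higher on average (log2 difference 1.20, standard error 0.17, adjusted p = 0.000123, limma), and Gdnf also passed the strict limits. Gata4, a transcription factor of Sertoli and Leydig cells, was modestly higher (22.2 ± 0.98 FPKM in A50 and 30.8 ± 2.23 in BA50, SD, n = 3; adjusted p = 0.034, limma), but was not called when any A50 replicate, or BA50 replicate 1 or 2, was left out, whereas Gdnf was called each time. The fall was that of Dmrt1, a factor that spermatogonia make as well as Sertoli cells, with 9.07, 10.2 and 8.9 FPKM in A50 and 0.84, 0.57 and 0.75 in BA50, 13.1 times less. Sox9 and Wt1, transcription factors that mark Sertoli cells, overlapped between groups (log2 differences 0.34 and 0.02, adjusted p = 0.441 and 0.977, limma).

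Among Leydig cell and steroid hormone genes, 1 of 11 was higher, 0 were lower and the median was 0.48. That single call was 9.09% of the list, against 4.06% of all tested genes. The called gene was Fdxr, the ferredoxin reductase of mitochondrial steroid synthesis, with 26.8, 40.8 and 36.3 FPKM in A50 and 57.96, 55.1 and 48.8 in BA50. No gene of the list was called without A50 replicate 1 or 3 or BA50 replicate 1 or 2. Star, which moves cholesterol into mitochondria, had 141, 221 and 238 FPKM in A50 and 258, 332 and 276 in BA50. Its groups were apart without passing (log2 difference 0.55, adjusted p = 0.0819, limma). Insl3, a Leydig hormone, did not pass either (adjusted p = 0.248, limma) and its groups overlapped.

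The other cell types of the testis had few calls, while 4.06% of all tested genes were called higher and 17.1% lower. None of 10 peritubular myoid, 17 macrophage and 11 endothelial genes passed in either direction, with medians of 0.15, -0.22 and 0.06. Single samples set the sign of these medians: the macrophage median was 0.21 without BA50 replicate 2, and the endothelial median was -0.11 without BA50 replicate 1. Of 16 stromal genes only Fn1, fibronectin, was higher (62.7, 94.5 and 69.1 FPKM in A50, 114, 129 and 139 in BA50; adjusted p = 0.0438, limma). Fn1 was not called without A50 replicate 1 or 3 or any BA50 replicate. Lists of other tissues held few tested genes: 3 of erythrocytes and 2 of fat cells with no call, 6 of rete testis or epididymal epithelium with 1 higher (Cldn3, a tight junction claudin, not called when any 1 of the 6 samples was left out), and 1 of striated muscle with no call. Their medians were -0.02, 0.74, -0.31 and -0.22.

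Of the 21 genes of DNA replication and mitosis, 17 were lower (81.0%, against 17.1% of all tested genes) and 0 higher, with a median of -0.88. Top2a, the topoisomerase of dividing cells, had 45.4, 44.7 and 42 FPKM in A50 and 13.8, 12.03 and 10.8 in BA50, 3.60 times less. Bub1b of the spindle checkpoint (17.3, 18.2 and 15.97 against 4.38, 4.72 and 4.7) and Mki67, the Ki-67 antigen (9.75, 10.7 and 9.66 against 4.59, 3.02 and 2.83), fell alike, with all BA50 samples below all A50 samples. Pcna, the replication clamp, overlapped (74.2, 73.6 and 62.9 against 77.6, 51.1 and 50.4).

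In the Fanconi anemia and crosslink repair pathway, which removes the kind of lesion busulfan makes, 13 of 18 genes were lower, 0 higher, with a median of -0.91. Ube2t, the ubiquitin-conjugating enzyme of the pathway, had 40.2, 41.9 and 36.5 FPKM in A50 and 3.58, 4.1 and 4.08 in BA50, 10.1 times less (log2 difference -3.04, standard error 0.10, adjusted p = 7.27e-11, limma). Brca2, a repair protein that also acts in meiosis, was 2.72 times lower. Core members Fancc, Fance and Fancf had differences between 0.06 and 0.10 and did not pass the test.

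Of 16 targets of p53, the factor that responds to DNA damage, 4 were higher and 1 lower (median 0.26). As shares these were 25% and 6.25%, against 4.06% and 17.1% of all tested genes. Phlda3, an inhibitor of AKT, had 10.6, 11.6 and 14.2 FPKM in A50 and 32.6, 15.2 and 24.01 in BA50. Ccng1, a cyclin G, Bax, which promotes apoptosis, and Eda2r, a death receptor, rose by 0.47, 0.50 and 0.52 on the log2 scale (adjusted p = 0.0267, 0.0358 and 0.042, limma). Pmaip1, which encodes the apoptosis factor NOXA, fell from 6.41, 4.99 and 5.5 FPKM to 2.58, 1.18 and 2.57. Cdkn1a, the cell cycle inhibitor p21, spread over a wide range in BA50, with 31.2, 33.02 and 20.4 FPKM in A50 and 177, 59.3 and 9.19 in BA50 (adjusted p = 0.62, limma), so the groups overlapped. The 4 rises depended on single samples, since 0 of the 16 were called higher without A50 replicate 1 or 2 or without BA50 replicate 3.

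Inflammatory genes had 3 of 13 higher (23.1%, against 4.06% of all tested genes) and 0 lower, with a median of 0.40. Cxcl1, a neutrophil chemokine, had 96.5, 107 and 118 FPKM in A50 and 223, 229 and 164 in BA50, Ccl2, a monocyte chemokine, 93.9, 116 and 106 against 249, 164 and 166, and Il6 10.3, 6.9 and 6.33 against 14.98, 13.5 and 18.2. All 3 were between 1.84 and 1.98 times higher on average without overlap, while the macrophage list had no call. Without A50 replicate 2 or 3 or BA50 replicate 1, only 1 of the 13 was called. Glutathione genes had 2 of 16 higher (Gsta2 and Gstp1, transferases, 1.93 and 1.69 times, in a family of close copies whose reads may be shared) and 0 lower, with a median of 0.37. The number called higher was 0 without A50 replicate 1 or BA50 replicate 1, 1 without A50 replicate 3 or BA50 replicate 2, and 4 without BA50 replicate 3. Neither the 19 tested genes of cholesterol synthesis nor the 10 of the interferon response had a call (medians 0.03 and 0.15). In the hypoxia response, 2 of 15 were higher (Hk2 and Pfkfb3, both of glycolysis) and 1 lower (Pfkfb4), with a median of -0.15. That median turned to 0.23 without BA50 replicate 2 and to 0.43 with sample quality weights, and Pfkfb4 was not called without A50 replicate 1 or 2 or BA50 replicate 1 or 3. Of 17 alternative settings, Pfkfb3 lost its call in 10, Pfkfb4 in 7 and Hk2 in 1.

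The 6 genes higher at the strict limits were Clcf1, Chchd10, Cebpb, Gdnf, Akr1c18 and 1 gene model of the authors without a symbol, BGI_novel_G000988. Cebpb (chr2:167688915-167690432), a leucine zipper factor induced by cytokines, had 35.6, 38.2 and 42.2 FPKM in A50 and 95.1, 72.7 and 93.5 in BA50. Clcf1, a cytokine of the IL-6 family, had 20.8, 27.5 and 25.2 against 53.2, 54.7 and 42.4. Chchd10, a mitochondrial protein, had 144, 178 and 195 against 307, 459 and 387. These 3 were therefore 2.04 to 2.25 times higher with no overlap. Akr1c18 (chr13:4132615-4150646), which inactivates progesterone, had 0.94, 1.53 and 0.88 FPKM in A50 and 13.5, 11.6 and 5.76 in BA50, 9.21 times higher. The unnamed gene model was listed at 0 in all 3 A50 samples and had 2.48, 2.03 and 2.06 FPKM in BA50. It was also at 0 in every A10 sample but had 0.67, 1.78 and 0.66 FPKM in A0, likewise without busulfan. Of the 6 genes, 5 were also called higher in BA10 against A10 and 2 in B0 against A0. Over all tested genes these shares were 4.13% and 1.36%.

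The largest rises had another pattern. Of the 10 largest rises by the same rule as for the falls, 8 lay on chromosome 17 (Ier3, Ddr1, Abcf1, Flot1, H2-T22, Trim26, Gnl1 and Ppp1r10), and the others were Akr1c18 and Itm2a. All but Trim26 of the 8 lay within chr17:35681567-36042742, a stretch of 361 kb in the major histocompatibility complex from Ddr1 to H2-T22 that was chosen after its values were seen and has no test as a set. Of its 17 tested genes 11 were higher in BA50 and 1 was lower, while 29 of the 670 other tested genes of chromosome 17 were higher (4.33%). Ier3, an immediate early response gene, had 2.59, 1.48 and 0.85 FPKM in A50 and 148, 85.5 and 112 in BA50 (log2 difference 5.48, standard error 1.06, adjusted p = 0.00142, limma). Abcf1, a factor of translation, had 1.59, 1.25 and 1.43 against 25.6, 18.3 and 16.1. Flot1, a flotillin of membrane rafts, had 1.52, 2.95 and 0.73 against 25.3, 8.92 and 11.99. Among the neighbours that did not pass, Mrps18b, a mitochondrial ribosomal protein, had 36.2, 32.9 and 36.9 FPKM in A50 and 37.6, 33.3 and 33.4 in BA50.

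These neighbouring genes also varied within other groups. Ier3 ranged from 0.85 to 238 FPKM over the 18 samples, with 169, 238 and 17.2 in B0 and 9.89, 30.99 and 231 in A10. Taking the 11 called genes together, the median deviation from their 18-sample medians was -1.97, -1.61 and -2.01 in A50 on the log2(FPKM + 1) scale. It was also low in A10 replicate 1 (-1.21), B0 replicate 3 (-1.41) and BA10 replicate 1 (-1.20), and 0.67, 0.21 and 0.14 in BA50. The 11 genes were chosen as called higher in BA50 than in A50, so a lower value in A50 than in BA50 follows from that choice. The low values were thus shared by all A50 samples and by 1 sample of each of 3 other groups, with and without busulfan. In the comparisons without AOS and with 10 µg/mL AOS, Ier3 differed by 0.60 and 0.30 and was not called (adjusted p = 0.80 and 0.86, limma). H2-T22 belongs to a family of similar class I genes, so reads may be shared between copies.

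**Figure D4:**
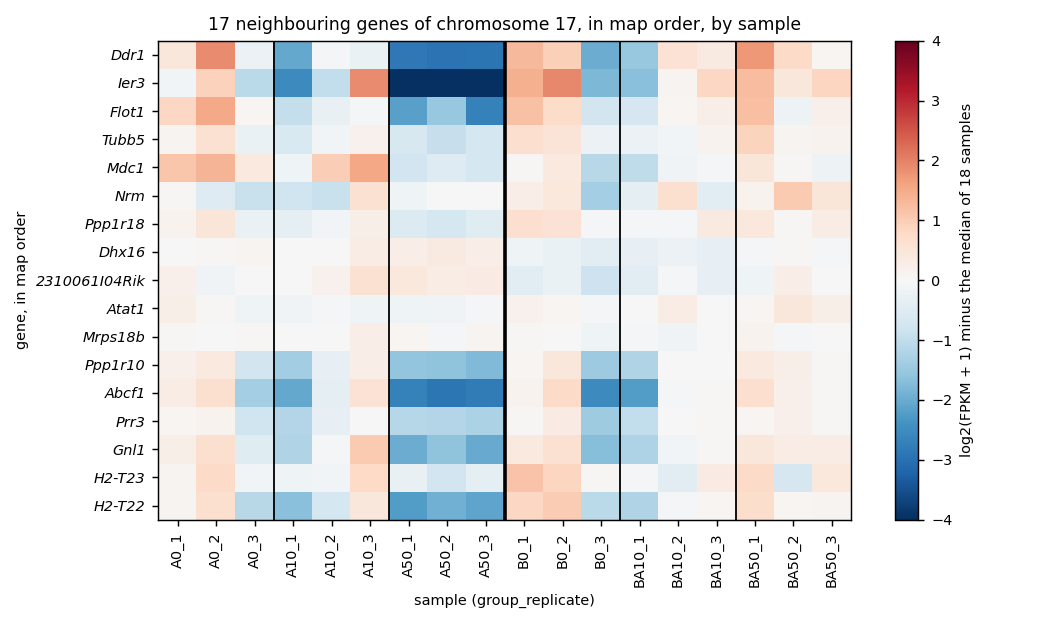
Rows are the 17 tested genes from Ddr1 to H2-T22 in map order and columns the 18 samples by group, with the color giving log2(FPKM + 1) minus the median of the 18 samples of that gene. Ddr1, Ier3, Flot1, Ppp1r10, Abcf1, Gnl1 and H2-T22 are blue (low) in all 3 A50 samples and also blue in A10 replicate 1, B0 replicate 3 and BA10 replicate 1.

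The busulfan difference at 50 µg/mL AOS was set beside those without AOS (B0 against A0) and at 10 µg/mL (BA10 against A10), which share no sample with it. Over the same 14929 genes, 1906 were lower (12.8%) and 203 higher (1.36%) in B0, and 2379 lower (15.9%) and 617 higher (4.13%) in BA10. The difference between the busulfan differences was called for 0 genes at 50 against 0 µg/mL (0%, smallest adjusted p = 0.266, 936 genes at an unadjusted p under 0.05, limma). It was called for 0 genes at 50 against 10 µg/mL (0%, smallest adjusted p = 0.999, 282 genes at an unadjusted p under 0.05, limma). No gene was therefore shown to respond to busulfan differently at 50 µg/mL, including the 394 genes called lower and the 367 called higher in BA50 alone.

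Genes that fell were largely shared. Of the 2546 lower in BA50, 1685 were also lower in B0 (66.2% of the BA50 genes and 88.4% of the B0 genes) and 2036 in BA10 (80.0% and 85.6%). Of the 527 at the strict limits, 520 were lower in all 3 comparisons, and their median differences were -1.42 at 50 µg/mL, -1.36 at 10 µg/mL and -1.24 without AOS. Tex101 differed by -5.39, -5.58 and -5.71, Stra8 by -4.77, -4.29 and -4.68, and Sycp3 by -3.39, -3.16 and -3.28, at 50, 10 and 0 µg/mL. For the rises, of the 606 higher in BA50, 72 were also higher in B0 (11.9% and 35.5%) and 214 in BA10 (35.3% and 34.7%). Their median differences were 0.55 at 50 µg/mL, 0.36 at 10 µg/mL and 0.20 without AOS, all in the same direction. Far fewer genes were called higher than lower in B0. The 606 genes, like the 527 above, were chosen by their values at 50 µg/mL. That choice by itself tends to enlarge their medians at 50 µg/mL, which are therefore not comparable with those at 10 and 0 µg/mL. The order of the medians at 10 and 0 µg/mL was not tested. Across the tested genes, the differences at 50 µg/mL had a Pearson's r of 0.71 with those at 0 and 0.76 with those at 10 µg/mL, given as a description because genes are not independent.

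By list, the falls lay close together at the 3 concentrations. Early meiotic prophase had medians of -1.31, -1.19 and -1.25 at 50, 10 and 0 µg/mL, the piRNA pathway -1.44, -1.48 and -1.22, and DNA replication and mitosis -0.88, -0.77 and -0.95. Elongating spermatid genes were spread more, with medians of 0.91, 0.37 and -0.09. Prm1 differed by 0.93 at 50, 0.35 at 10 and -0.12 at 0 µg/mL, and the difference between 50 and 0 µg/mL had an unadjusted p of 0.039 but an adjusted p of 0.78 (limma). For Tnp2 these values were 0.024 and 0.74. No spermatid gene was called for a difference between AOS concentrations. Gdnf differed by 1.20, 0.67 and 0.35, and its difference between 50 and 0 µg/mL was not called either (adjusted p = 0.66, limma).

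**Figure D5:**
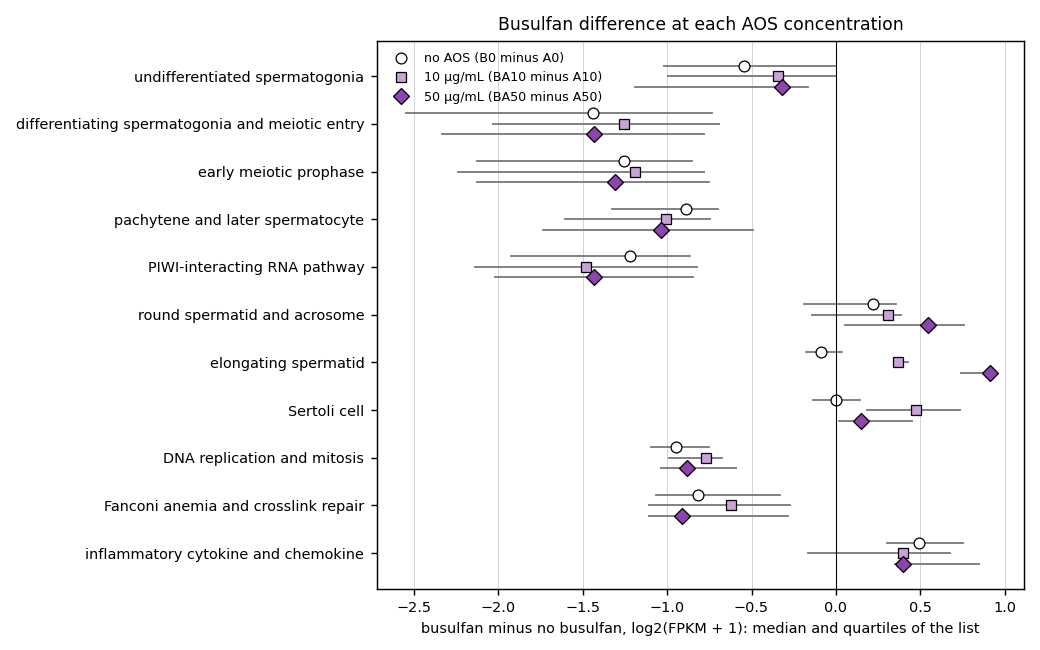
Symbols are the medians, and lines the quartiles, of the busulfan difference in log2(FPKM + 1) over the tested genes of 11 lists, without AOS (circles), at 10 µg/mL (squares) and at 50 µg/mL (diamonds). The germ cell lists up to the piRNA pathway lie below 0 at each concentration, and the elongating spermatid median is -0.09, 0.37 and 0.91.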

How the data were processed

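RNA-seq of 18 cultured mouse testis samples was deposited as 1 table of FPKM values per gene, computed by the authors, with no read counts, so read depth is unknown and only the spread between samples measures precision. The submitters' processing notes name HISAT, Bowtie2 and RSEM with GRCm38.p5, whereas the supplementary methods name SOAPaligner and RPKM, and which of them made the table is not settled here. Strand use in counting is not given in the sources used here. The values were summarised by gene, so reads shared by near copies may have been split among them.

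Samples were grouped by the labels. Genes that reached 1 FPKM in 3 or more of the 6 BA50 and A50 samples were tested on log2(FPKM + 1) with limma 3.58.1 in R 4.3.3 (lmFit, eBayes with trend), fitting all 18 samples with 1 mean per group, 12 residual degrees of freedom and a prior of 2.60. Tests were two-sided, with Benjamini-Hochberg adjustment over the 14929 tested genes. The MARS test of the study's methods needs read counts and was not run. The fit was tested on simulated data. Tables and plots used pandas 2.3.3 in Python 3.11.15, with SciPy 1.17.1, matplotlib 3.10.9 and NumPy 2.4.6. Symbols came through NCBI gene numbers (20656 of 20811 matched), and the other 1846 rows were gene models of the authors, of which 765 were tested. Gene positions are from GENCODE and promoters from RefSeq.

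Genes were named by rule. In each direction these were the 10 largest changes among called genes with a symbol, no overlap and a mean of at least 5 FPKM in the higher group. In each list they were up to 4 called members with the smallest adjusted p, made up to 2 by the most expressed members, and 12 genes that the study names were added. The comparison, gene lists and rule were chosen with earlier results of these data known, so they are no independent support. Alternatives changed the filter, pseudocount, scaling, sample weights, variance model, samples fitted, replicate block and each replicate in turn. The values of 1 list member are not reported here.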

Additional observations from a re-analysis of the deposited data

How the results depend on the processing

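Genes called lower in BA50 (2546 in the fit of 18 samples) numbered 1988 to 2374 without 1 replicate, and those called higher (606) 268 to 658. At the strict limits the ranges were 426 to 512 lower (527) and 4 to 11 higher (6). Fitting only the 6 samples left 201 strict falls, and a mean of at least 5 FPKM as the filter left 297, with fewer genes tested. A pseudocount of 0.1 gave 12 strict rises and quantile normalization gave 10, with 1011 genes called higher at an adjusted p under 0.05, against 321 after scaling to equal sums. Sample weights gave 3839 lower, 2234 higher and 29 strict rises. These weights were estimated gene by gene, a choice made after seeing the data because the planned estimate did not converge. The difference between busulfan differences at 50 and 0 µg/mL was called for 1 gene with the 0.1 pseudocount, 1 with no filter and 5 with weights. Apart from the construction of each alternative, the cause of these shifts was not tested. Samples share only a replicate number. Deviations of same-numbered BA50 and A50 samples correlated at 0.033, 0.207 and 0.109 across genes. Differently numbered pairs ran from -0.289 to 0.147, so the values do not establish a pairing. With the replicate block over 18 samples 2420 genes were lower and 538 higher, and with the replicate block in the 6 samples alone 1597 were lower and 286 higher, with 1 strict fall and 0 strict rises. Of the 90 named genes, 64 kept their side of the threshold under every alternative, and 0 of those called changed direction. Read depth is unknown, so the detection limit of low genes could not be given.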
